A study of Homo sapiens with 8 samples.

Results

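The comparison described here is that of U2OS cells carrying both Zab and overexpressed MYC with U2OS cells overexpressing MYC alone, across all genes. U2OS is an established human osteosarcoma cell line. RNA-seq was done on 8 libraries in 4 genotypes of 2 libraries each, and the comparison was made of the 2 libraries labelled Zab + MYC O/E (here Zab+MYC) and the 2 labelled MYC O/E (here MYC), that is 4 of the 8. Both groups share the overexpressed MYC, so that Zab is what the labels give as different between them. The other 4 libraries, labelled WT (neither factor) and Zab (Zab without overexpressed MYC), are used for the spread between libraries and to set the difference with Zab beside that without overexpressed MYC. How MYC and Zab were introduced, for how long, and whether the cells are pools or single clones are not given in the sources used here. All 19414 genes of the deposited tables were considered, and 9673 passed a filter on low values and were tested.

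MYC is a transcription factor that pairs with MAX and binds E-box sequences, and it is known for driving genes of ribosome production, protein synthesis and growth. Zab is the labels' name for Zαβ, in general use the Z-nucleic-acid-binding domains of ADAR1, the enzyme encoded by ADAR that edits double-stranded RNA. These domains bind the left-handed form of DNA or RNA, which can arise behind a moving RNA polymerase. FACT, made of SUPT16H and SSRP1, is a histone chaperone that opens nucleosomes for the polymerase, and the series title links it to MYC and Z-DNA. Double-stranded RNA in the cytosol is otherwise sensed by proteins that turn on interferon-stimulated genes.

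Tags in exons, which are not all whole because a tag was taken as 2 steps of the deposited values, ran from 711206.5 to 1326166.5 in the 4 libraries compared, and from 686991.5 to 909601 in the other 4. Levels are given as CPM, a gene's tags per 1000000 exon tags of its library, scaled by TMM (a method that assumes most genes do not differ), in the order replicate 1 and replicate 2. The 2 libraries of a group differed by no more than counting noise in every group (chi-square per degree of freedom from 0.997 to 1.02). With no further library of a group to compare them with, they were counted as 2, but the labels do not say whether they are separate cultures. The p-values therefore reflect the spread of these libraries alone, and that spread may be technical. Exons took 76.0% ± 0.119 (SD, n = 2) of all tags in MYC and 69.1% ± 0.129 in Zab+MYC, and the deposited values of Zab+MYC summed to 0.765 of those of MYC. Of the markers of mesenchymal cells, 8 of 15 were tested, and the list summed to 5332 and 5492 CPM in MYC and to 7645 and 7772 in Zab+MYC, most of it VIM. TWIST1 was at 0 in all 8 libraries, and SP7 and IBSP each had tags in only 1 library. Epithelial markers summed to 17.3 and 10.3 CPM in MYC and to 40.9 and 50.3 in Zab+MYC, blood cell markers to 14 and 8.72 and to 6.33 and 17.0, and endothelial markers to 0.93 and 0.79 and to 8.27 and 2.13. CD3E was at 0 in the 4 libraries compared, CDH1 in all but Zab+MYC replicate 2 (1.42 CPM) and PTPRC in all but Zab+MYC replicate 1 (0.973), while CD68 (8.87 and 5.55 CPM in MYC, 3.89 and 10.6 in Zab+MYC) and EPCAM (2.80 and 3.17, and 1.95 and 1.42) had tags throughout. The part of such cells in the results was not tested.

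Zab+MYC differed from MYC in 1933 of 9673 genes tested (20.0%; limma, Benjamini-Hochberg adjusted p under 0.05). Of these, 1146 were higher (11.8%) and 787 lower (8.14%), and these percentages are the background for every count of list members below. Counts of 4 or fewer members often changed by 1 or more when a library was left out. The changes differed in size by direction. Among called genes, 480 were at least 2-fold higher and 31 at least 2-fold lower. The median log2 difference over all genes tested was -0.00 and the quartiles were -0.26 and 0.34. On the scale the authors deposited, that median was -0.31, and calls were 575 higher and 2947 lower. With library totals in place of TMM they were 1335 and 570. Directions given for lists and genes are therefore relative to the bulk of genes, and the median of a list can turn on the deposited scale, as it did for the NF-kB (-0.04), ERK feedback (-0.21), BCL2 (-0.17) and OAS (-0.08) lists and for those where it is said below. With DESeq2, which called 335 genes higher and 367 lower, 23 of 28 list counts of 5 or more members were lower by over 1.5 times. Without MYC replicate 1, MYC replicate 2, Zab+MYC replicate 1 or Zab+MYC replicate 2, the higher calls numbered 696, 748, 734 and 628 and the lower calls 482, 460, 588 and 508.

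**Figure D1:**
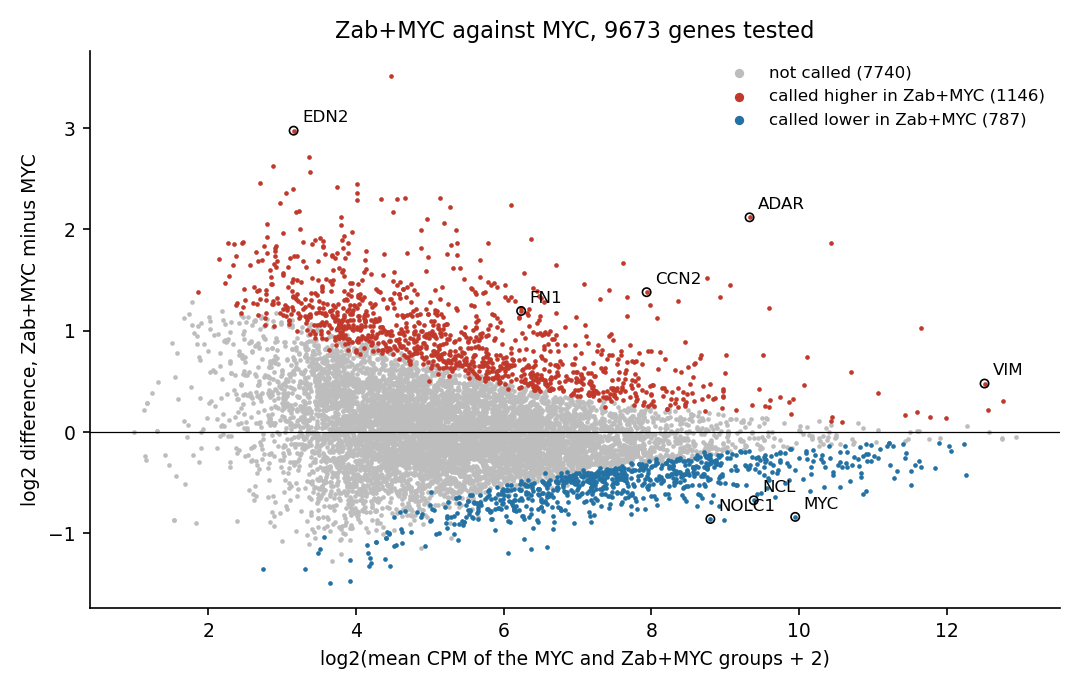
Log2 difference of Zab+MYC and MYC (y axis) against log2 of the mean CPM of both groups plus 2 (x axis) for the 9673 genes tested, 1 point per gene, red where called higher in Zab+MYC (1146), blue where called lower (787) and grey where not called. Few blue points lie beyond a 2-fold change (31 genes), while 480 red points do, and 8 genes are ringed and named.

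The genes named by the labels moved in opposite directions. MYC lies on chromosome 8 between 128748477 and 128755197 (hg19). Its level was 1237 and 1290 CPM in MYC and 707 and 705 in Zab+MYC. Both Zab+MYC libraries were lower, and MYC fell 1.79-fold (log2 -0.84 ± 0.0909 SE, adjusted p = 1.34e-11). It remained above its level in WT, 72.6 and 94.8 CPM, and in Zab, 230 and 194. ADAR lies on chromosome 1 between 154554534 and 154578729. Its level was 247 and 230 CPM in MYC and 1068 and 1019 in Zab+MYC. It rose 4.34-fold (log2 2.12 ± 0.0589, adjusted p = 1.03e-43), whereas the Zab libraries held 6003 and 6198 CPM. The deposited values do not separate introduced from endogenous transcripts of either gene. ADAR was counted on another transcript in Zab and Zab+MYC than in WT and MYC, and the part of that switch in its change was not tested. MYC was counted on another transcript in Zab replicate 1 than in the other 7 libraries, which touches its level in Zab and the values drawn from it. Such switches were common. Of the 9673 genes tested, 5265 were counted on the same transcript in the 4 libraries compared. For the others the part of a switch in their change was not tested.

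The FACT subunits were lower or not called. SSRP1 stood at 301 and 291 CPM in MYC and at 238 and 240 in Zab+MYC, a log2 difference of -0.31 ± 0.104 (adjusted p = 0.0273). Its groups did not overlap, but the call ended with library totals, with no filter, with DESeq2 and without any 1 of the 4 libraries compared (adjusted p 0.055 to 0.12). SUPT16H stood at 115 and 118 CPM against 107 and 82.9 and was not called (log2 -0.30 ± 0.155, adjusted p = 0.17), though it was on the deposited scale (-0.63, adjusted p = 0.00078). Over FACT and other histone chaperones, 9 of 30 members fell and 1 rose, with a median log2 of -0.19. NCL, nucleolin, fell from 799 and 841 to 514 and 512 CPM (log2 -0.67 ± 0.0836, adjusted p = 1.13e-09). NPM1, the nucleolar chaperone nucleophosmin, fell from 815 and 904 to 586 and 549 CPM (log2 -0.60). ASF1B, which hands over histones H3 and H4, went the other way, from 25.2 and 25 to 68.1 and 69.5 CPM (log2 1.39 ± 0.177, adjusted p = 2.98e-09). The lower calls of this list numbered 5 without MYC replicate 1.

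Genes that MYC is known to drive were lower with Zab. Of 64 tested MYC core targets, 38 fell and 1 rose, with a median log2 of -0.42 and 6 of 64 above 0. The lists were drawn up with earlier results of these libraries known, so that the direction of this one is not independent evidence. SLC16A1, a lactate transporter, stood at 118 and 101 CPM in MYC and at 53 and 58.1 in Zab+MYC, and its fall of 1.93-fold (log2 -0.95 ± 0.229, adjusted p = 0.00136) was the largest by fold of the core targets named. NDUFAF4, an assembly factor of respiratory complex I, fell from 142 and 122 to 68.1 and 72.3 CPM (log2 -0.88). NOLC1, a nucleolar phosphoprotein, fell from 559 and 585 to 321 and 308 CPM (log2 -0.86 ± 0.103, adjusted p = 4.08e-10). DDX18, a nucleolar RNA helicase, fell from 264 and 277 to 163 and 173 CPM (log2 -0.68). In each of these 4 genes both Zab+MYC libraries lay below both MYC libraries and above both WT libraries.

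Ribosome biogenesis genes, a list that shares no member with the core targets, fell in 45 of 90 cases and rose in 0, with a median log2 of -0.46. RSL1D1, a nucleolar protein of the large subunit path, went from 963 and 1015 CPM in MYC to 626 and 645 in Zab+MYC (log2 -0.64 ± 0.0733, adjusted p = 1.03e-10). NOP58, a core protein of box C/D small nucleolar RNPs, went from 428 and 445 to 269 and 273 CPM (log2 -0.68 ± 0.108). LYAR, a nucleolar zinc finger protein, went from 189 and 204 to 120 and 116 CPM (log2 -0.73). EBNA1BP2, a large-subunit assembly factor, fell 1.44-fold and POLR1D, a subunit shared by RNA polymerases I and III, also fell 1.44-fold. The count of 45 became 26 without either MYC library and 25 without Zab+MYC replicate 2, with 0 members higher in every alternative run.

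Polyamine synthesis shared this direction at its main steps. ODC1, the rate-limiting ornithine decarboxylase, stood at 2315 and 2264 CPM in MYC and at 1554 and 1505 in Zab+MYC (log2 -0.58 ± 0.0515, adjusted p = 4.45e-15). AMD1, which supplies the aminopropyl donor, fell from 173 and 205 to 103 and 110 CPM (log2 -0.81), and SRM, spermidine synthase, from 2853 and 2910 to 2107 and 2109 CPM (log2 -0.45 ± 0.0433). These 3 were the called ones among 12 members tested, and none rose. Nucleotide and one-carbon synthesis had 8 of 36 members lower and 2 higher, with IMPDH1, of guanine nucleotide synthesis, 1.55-fold lower and MTHFD2, a mitochondrial folate enzyme, 1.36-fold lower. The 8 became 5 without MYC replicate 2 or Zab+MYC replicate 2.

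**Figure D2:**
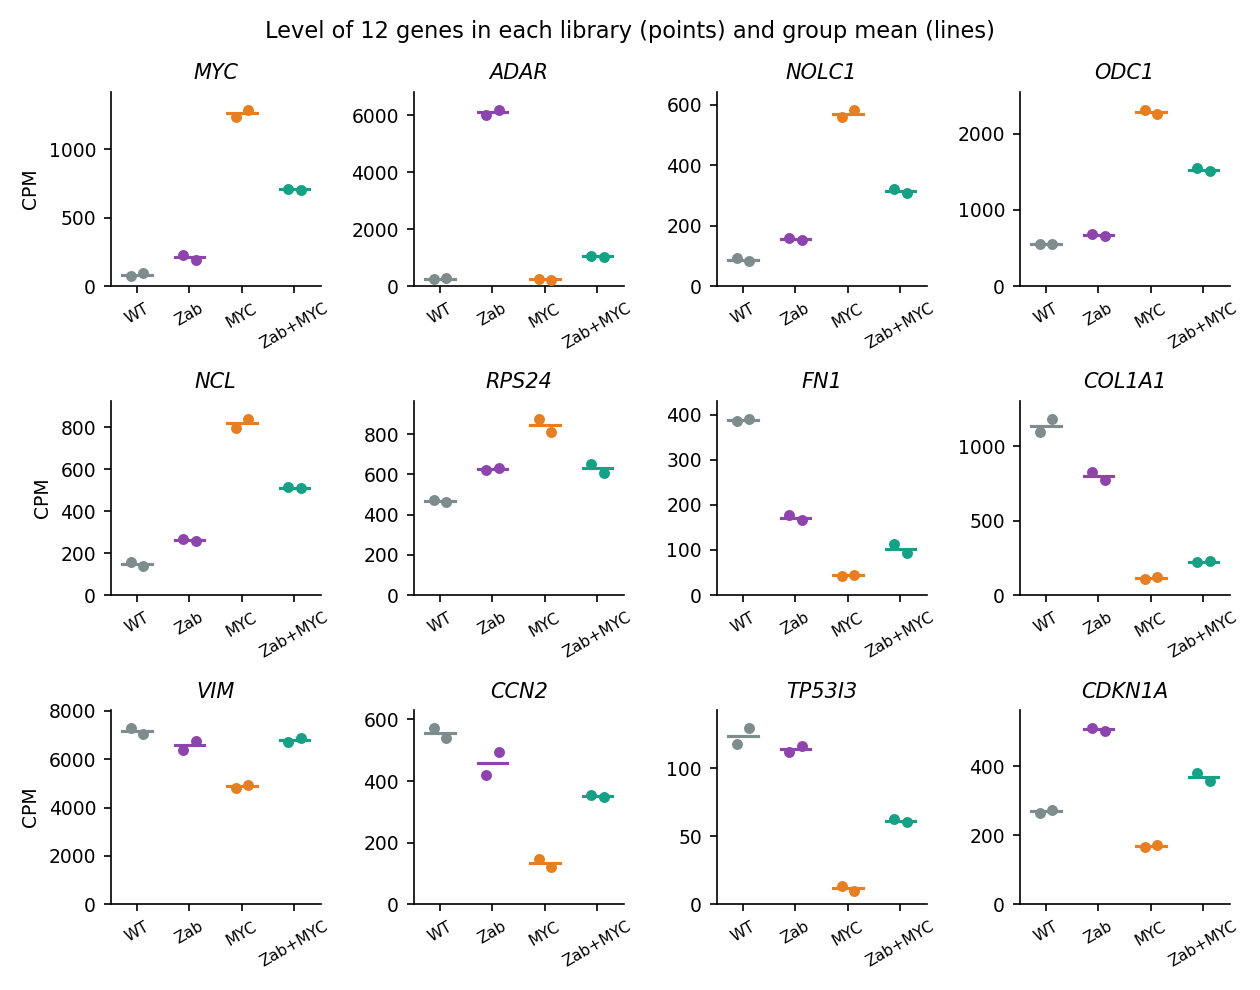
CPM (y axis, from 0) of 12 genes in each of the 8 libraries (points, 2 per group) with the group mean as a line. For NOLC1, ODC1, NCL and RPS24 the Zab+MYC libraries lie below the MYC libraries, and for FN1, COL1A1, VIM, CCN2, TP53I3 and CDKN1A above them.

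The protein-making machinery fell by smaller steps. Among cytosolic ribosomal proteins 44 of 78 fell and 2 rose, with a median log2 of -0.16. RPS24, of the small subunit, stood at 878 and 811 CPM in MYC and 650 and 610 in Zab+MYC (log2 -0.42 ± 0.0655, adjusted p = 5.95e-07). RPL26, of the large subunit, fell from 860 and 907 to 626 and 666 CPM (log2 -0.45), and RPS27A, made as a fusion with ubiquitin, fell 1.31-fold (log2 -0.39 ± 0.0365). Mitochondrial ribosomal proteins fell in 19 of 75 cases and rose in 0, median -0.26, with MRPS23 and MRPL21 lower by 1.48-fold and 1.45-fold. That count was the least stable of these, at 8, 9, 6 and 9 without MYC replicate 1, MYC replicate 2, Zab+MYC replicate 1 and Zab+MYC replicate 2. Of 57 translation factors and tRNA synthetases 14 fell and 3 rose, median -0.14. EIF3J, a subunit linked to initiation factor eIF3, fell from 260 and 274 to 152 and 151 CPM (log2 -0.81 ± 0.148), and EIF2B3, of the exchange factor eIF2B, fell 1.70-fold. Near-identical copies of ribosomal protein genes make single values in that family uncertain.

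Chaperones and respiratory chain genes moved the same way. Of 40 heat shock proteins and co-chaperones 17 fell and 1 rose, median -0.33. DNAJC2, a ribosome-associated co-chaperone, stood at 628 and 671 CPM in MYC and at 381 and 331 in Zab+MYC (log2 -0.87 ± 0.1, adjusted p = 1.28e-10). HSPD1 and HSPE1, the mitochondrial chaperonin pair, fell 1.45-fold and 1.53-fold, and FKBP4, a partner of HSP90, fell 1.5-fold. HSP90AA1, the inducible HSP90, fell from 3387 and 3539 to 2465 and 2348 CPM (log2 -0.52 ± 0.0404). Respiratory chain subunits fell in 16 of 72 cases and rose in 2, median -0.15, with COX7B of complex IV 1.35-fold lower.

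**Figure D3:**
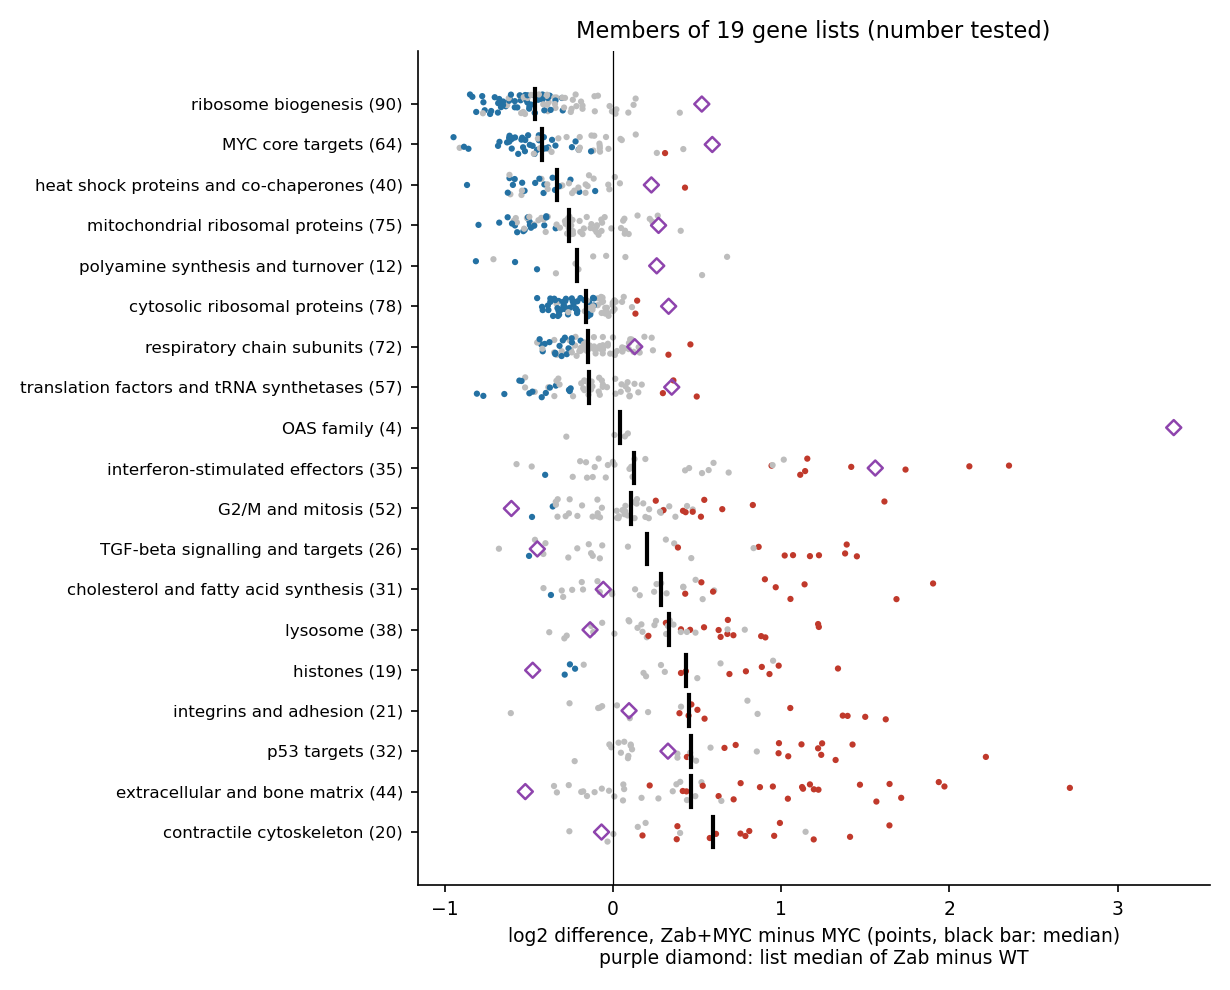
Log2 difference of Zab+MYC and MYC (x axis) for each tested member of 19 gene lists (1 point per gene, red called higher, blue called lower, grey not called), with the list median as a black bar and the median of the same list in Zab against WT as a purple diamond. The bars of growth lists lie left of 0 and those of matrix, contractile, adhesion, lysosome and p53 lists right of it, while the diamonds of ribosome biogenesis (0.53) and MYC core targets (0.59) lie right of 0 and that of the matrix list (-0.52) left of it.

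Interferon-stimulated genes were mostly not called in this comparison. Of 35 tested effectors 8 rose and 1 fell with a median log2 of 0.13, which turned to -0.04 on the deposited scale. One of the 8 was ADAR itself. The same 35 genes had 26 higher and 0 lower in Zab against WT, where 13.1% of all genes were called higher and 11.3% lower, with a median of 1.56. The filter on low values could be passed through any group, so some interferon-stimulated genes were tested through their level in Zab. IFI27, for example, had 0 tags in WT and 20 in Zab. Such genes can be called in Zab and lie too near 0 for a call here. The part of that selection in these counts was not tested. The 4 genes of the OAS list were all called higher in Zab against WT. OAS1, OAS2 and OAS3 encode enzymes that are activated by double-stranded RNA. OAS3 stood at 3.27 and 3.17 CPM in MYC and at 4.38 and 2.84 in Zab+MYC (log2 0.09 ± 0.401, adjusted p = 0.91), against 5.68 and 5.30 in WT and 73.2 and 70.4 in Zab. OAS1 was at 0 and 2.38 CPM in MYC and at 0 and 2.84 in Zab+MYC, against 37.3 and 36.1 in Zab. OAS2 had 0 tags in WT and in Zab+MYC and in Zab was at least 19.1-fold higher. The 2 groups compared overlapped for OAS1 and OAS3 and lay within a few tags of 0.

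ISG15, an interferon-induced ubiquitin-like protein, was among the effectors that did rise. It stood at 16.3 and 28.9 CPM in MYC and at 50.1 and 38.3 in Zab+MYC (log2 0.94 ± 0.175, adjusted p = 2.62e-05), below the 55.5 and 54.0 of WT, and far below the 845 and 906 of Zab. IFI6, an interferon-induced membrane protein, was at 2.80 and 2.78 CPM in MYC and 1.46 and 4.25 in Zab+MYC, against 118 in both Zab libraries. IFITM3, which blocks virus entry, was at 269 and 312 CPM in MYC and 270 and 251 in Zab+MYC and was not called (log2 -0.15, adjusted p = 0.217). IFIH1, the sensor MDA5, was too low to be tested, at 0 to 1.46 CPM in the 4 libraries compared and at 18.6 and 11 in Zab. EIF2AK2, the kinase PKR, had a log2 difference of 0.11 and was not called (adjusted p = 0.734). IFNB1 and CXCL10 were at 0 in all 8 libraries.

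Of the 8 effectors that rose, 6 had a promoter entry and 5 of these held a match to the interferon-stimulated response element (ISG15, SAMD9, LGALS3BP, PARP14 and TRIM5, but not ADAR). The matching stretch is shown for TRIM5 and LGALS3BP, the ones that held it among the 4 largest rises of effectors with at least 10 CPM, so that the motif can be seen beside their values. Sequences are from RefSeq (GRCh38.p14), 5′ to 3′ on the strand of the gene, and capitals mark the match on either strand to GAAA, any 2 bases and GAAA. The TRIM5 stretch is chr11:5685075-5685136, with the match starting 27 bases before the gene's start. The LGALS3BP stretch is chr17:78979937-78980016, with the match starting 58 bases before.
TRIM5: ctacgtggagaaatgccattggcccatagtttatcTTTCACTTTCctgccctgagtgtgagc
LGALS3BP: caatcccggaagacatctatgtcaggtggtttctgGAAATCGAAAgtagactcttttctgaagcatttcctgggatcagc
TRIM5, a restriction factor of retroviruses, stood at 26.6 and 21 CPM in MYC and at 61.8 and 71.6 in Zab+MYC (log2 1.42 ± 0.193, adjusted p = 2.15e-08), and was not called in Zab against WT (log2 0.01). LGALS3BP, a secreted glycoprotein, stood at 139 and 111 CPM in MYC and at 269 and 285 in Zab+MYC (log2 1.14 ± 0.0916, adjusted p = 5.01e-17), against 402 and 401 in WT. A match was found within the 250 bases before the start in 16 of 31 effectors with a promoter entry (51.6%) and in 3.11% of 8065 tested genes, in 3.44% of genes called higher in Zab+MYC and in 5.39% of genes called higher in Zab against WT. In the same window the E-box CACGTG, which reads the same on both strands, was in 31.4% of 51 MYC core targets, 15.9% of genes called lower, 8.6% of genes called higher and 11.9% of the tested genes. A match describes the letters only.

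**Figure D4:**
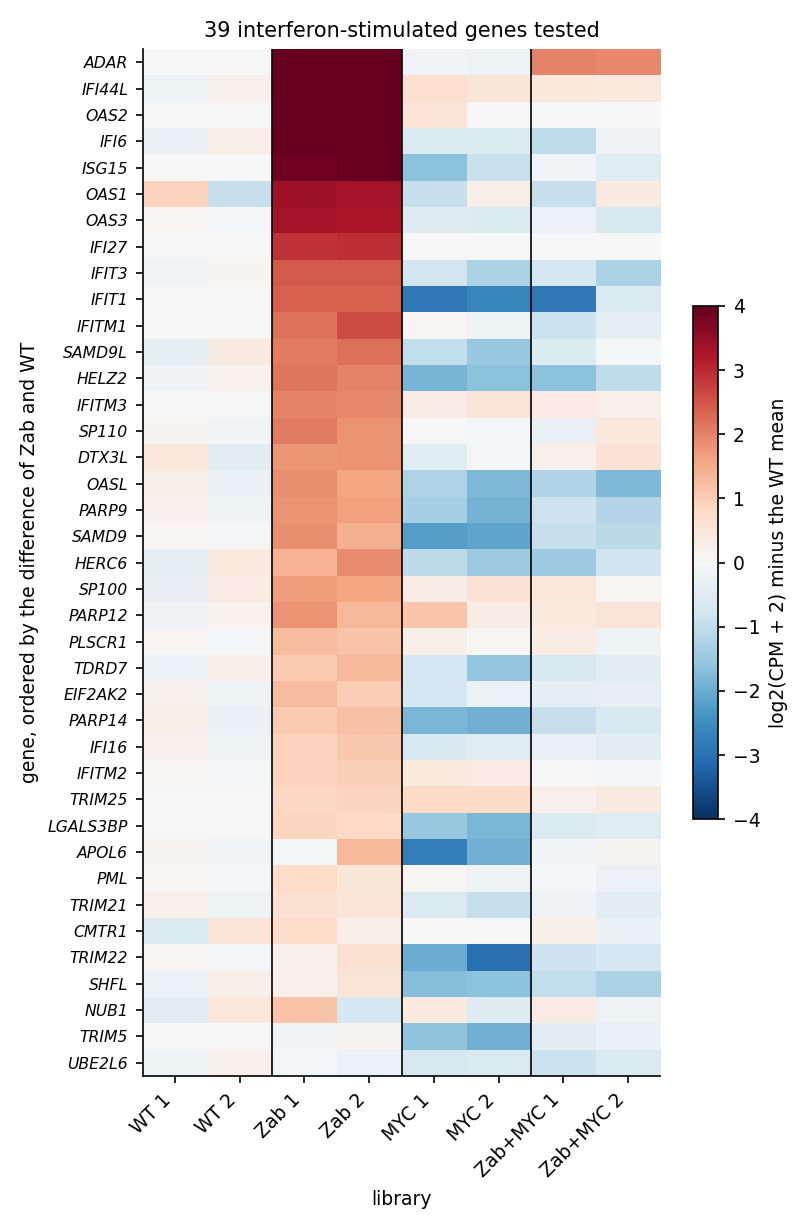
Log2(CPM + 2) minus the WT mean (colour, limited to 4 in either direction) of 39 tested interferon-stimulated genes (rows) in each of the 8 libraries (columns). For OAS2, IFI6 and IFI44L the Zab columns are dark red, while the MYC and Zab+MYC columns of these genes are pale, and several other genes, TRIM22 and IFIT1 among them, are blue in MYC.

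The sensing and signalling lists had few calls, but the share called higher, 20% to 25% of each, was above the 11.8% of all genes. That excess was not tested. Of 16 tested double-stranded RNA and Z-nucleic acid sensing genes 4 rose and 0 fell, with a median log2 of -0.11. Among the 4 was ADAR, which is in the effector list too. MAVS, the mitochondrial adaptor of RNA sensors, rose from 33.6 and 35.7 to 69.1 and 79.4 CPM (log2 1.05 ± 0.178, adjusted p = 3.82e-06). DDX58, the sensor RIG-I, stood at 7.94 and 4.36 CPM in MYC and at 12.7 and 24.1 in Zab+MYC (log2 1.30, adjusted p = 0.0022), a call that ended with DESeq2 and without MYC replicate 2 or Zab+MYC replicate 2 (adjusted p 0.065 to 0.18). Interferon receptors, STAT and IRF factors had 4 of 17 members higher and 0 lower, and 15 of 17 above 0. Their median was 0.27, which turned to -0.03 on the deposited scale. STAT3, which acts downstream of cytokine receptors, rose from 71.0 and 67.4 to 144 and 130 CPM (log2 0.96 ± 0.142, adjusted p = 1.61e-07). Without Zab+MYC replicate 2 the higher counts of these lists were 2 and 1, and without MYC replicate 2 that of the sensing genes was 2. In antigen processing TAPBP, tapasin, rose from 77.5 and 57.9 to 130 and 128 CPM (log2 0.92), while over that list 3 of 15 rose and 2 fell. Of 12 NF-kB response genes and cytokines 3 rose and 2 fell, with BCL3, an IκB-like regulator, 2.49-fold higher.

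Genes of the extracellular matrix were higher in Zab+MYC. Of 44 tested members 22 rose and 0 fell, with a median log2 of 0.47, or 0.16 on the deposited scale. FN1, fibronectin, stood at 43.0 and 44.4 CPM in MYC and at 112 and 93.6 in Zab+MYC (log2 1.19 ± 0.132, adjusted p = 2.32e-11). COL1A1, a chain of type I collagen, rose from 109 and 122 to 219 and 231 CPM (log2 0.95 ± 0.0812, adjusted p = 9.61e-16). SPARC, osteonectin, rose from 378 and 385 to 672 and 624 CPM (log2 0.76 ± 0.0573). All 3 remained below WT, which held 386 and 391, 1094 and 1187, and 1848 and 1850 CPM. LAMB2 and LAMA5, laminin chains of basement membranes, rose 2.77-fold and 2.33-fold. LOXL1 and LOXL4 belong to the lysyl oxidases, which crosslink collagen and elastin. LOXL1 rose from 2.34 and 6.74 to 20.9 and 23.4 CPM (log2 1.97 ± 0.291). LOXL4 rose from 2 tags in MYC to 28.5 in Zab+MYC, a ratio of 19.2 (95% counting interval 4.84 to 166). The count of 22 was 13 with DESeq2.

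Adhesion and mesenchymal genes accompanied the matrix. Of 21 integrins and adhesion genes 10 rose and 0 fell, median 0.45. L1CAM, a cell adhesion molecule of the immunoglobulin family, rose from 21 and 16.7 to 55.5 and 68.8 CPM (log2 1.62 ± 0.18, adjusted p = 3.00e-11). ITGA3, which pairs with integrin β1 to bind laminin, rose from 85 and 89.6 to 173 and 194 CPM (log2 1.05 ± 0.105), and CDH13, a cadherin without a transmembrane part, rose 2.58-fold. VIM, the intermediate filament vimentin, rose from 4805 and 4940 to 6710 and 6869 CPM (log2 0.48 ± 0.0258, adjusted p = 7.92e-26), next to 7308 and 7030 in WT. Among the 8 tested mesenchymal markers 5 rose and 0 fell, with 5 of 8 above 0 and the lowest at log2 -0.85. COL1A1 and SPARC, given above with the matrix, and CDH11, of the adhesion list, were among the 5 that rose. The counts of these lists are therefore not independent. KRT15, an epithelial keratin, rose as well, from 9.81 and 3.57 to 32.1 and 36.9 CPM (log2 2.17 ± 0.359, adjusted p = 2.42e-06), and was the 1 epithelial marker called. The adhesion count was 6 without MYC replicate 1 and 5 without Zab+MYC replicate 2, and the mesenchymal count 3 without MYC replicate 2 or Zab+MYC replicate 2.

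The contractile cytoskeleton had the highest share of members called higher among the lists of 15 or more tested genes. In it 13 of 20 rose and 0 fell, median 0.59, or 0.27 on the deposited scale. Over the alternatives the higher count ran from 4 to 14. Of the 20 members, 8 were counted on the same transcript in the 4 libraries compared. MYL6, a myosin light chain, stood at 48.6 and 49.2 CPM in MYC and at 154 and 160 in Zab+MYC (log2 1.64 ± 0.122, adjusted p = 1.54e-18). SYNPO, the actin-bundling synaptopodin, rose from 21.5 and 26.6 to 74.9 and 59.5 CPM (log2 1.41), and TNS1, tensin of focal adhesions, from 22.9 and 15.1 to 39.9 and 51.0 CPM (log2 1.19). FLNA, filamin A, which crosslinks actin, rose from 189 and 215 to 327 and 372 CPM (log2 0.79 ± 0.0835). TAGLN and ACTA2, smooth muscle genes of the list, were not called (log2 0.19 and 1.15, adjusted p = 0.457 and 0.0521), though ACTA2 was called with library totals, a pseudocount of 1 CPM, the replicate block and without Zab+MYC replicate 1 (adjusted p 0.0352 to 0.0499).

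TGF-beta and immediate early genes were divided. In the TGF-beta list 9 of 26 members rose and 1 fell, median 0.20, which turned to -0.10 on the deposited scale. CCN2, a secreted matricellular protein, stood at 148 and 121 CPM in MYC and at 355 and 347 in Zab+MYC (log2 1.38 ± 0.0911, adjusted p = 4.57e-21). BMP4, a bone morphogenetic protein, rose from 9.34 and 11.9 to 35 and 29.8 CPM (log2 1.45), and LTBP2, of the latent TGF-beta binding family, from 21.5 and 23.0 to 64.7 and 46.1 CPM (log2 1.22). ID3, an inhibitor of bHLH factors that BMP signals raise, fell from 579 and 607 to 409 and 430 CPM (log2 -0.50 ± 0.0674, adjusted p = 1.66e-08). Of 24 immediate early genes 9 rose and 3 fell, median -0.04. The largest rises with at least 10 CPM were in CCN1, CCN2, FOSL2 and EGR1 (log2 1.39, 1.38, 1.27 and 1.16). CCN1 and CCN2 are members of the TGF-beta list as well. DUSP2, a phosphatase of MAP kinases, fell from 152 and 142 to 85.6 and 80.8 CPM (log2 -0.81), and ARC, an activity-induced gene, from 403 and 444 to 286 and 253 CPM (log2 -0.65). Without Zab+MYC replicate 2 the higher calls were 5 of the TGF-beta list and 1 of the immediate early list, and the latter numbered 5 without MYC replicate 1.

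Targets of p53 rose without a fall. Of 32 tested 13 rose and 0 fell, with a median log2 of 0.46, or 0.16 on the deposited scale. TP53I3, an oxidoreductase induced by p53, stood at 13.5 and 9.91 CPM in MYC and at 62.3 and 60.2 in Zab+MYC (log2 2.22 ± 0.195, adjusted p = 3.30e-15). CDKN1A, the cell cycle inhibitor p21, rose from 166 and 171 to 381 and 357 CPM (log2 1.12 ± 0.0891, adjusted p = 3.63e-17), above the 265 and 273 of WT. XPC and DDB2, which recognise damaged DNA for excision repair, rose 2.68-fold and 2.37-fold, and PLK2, a polo-like kinase, rose from 52.3 and 47.6 to 120 and 136 CPM (log2 1.32). MDM2 and BAX were not called (log2 0.46 and 0.07, adjusted p = 0.0743 and 0.905). MDM2 was called with library totals, with edgeR, in the 4 libraries alone and without WT replicate 2 (adjusted p 0.0278 to 0.0472). The count of 13 was 8 without Zab+MYC replicate 2 and 7 with DESeq2. Of 14 BCL2 family genes 2 rose and 0 fell. These were BCL2L1, which encodes the survival protein BCL-XL, from 75.7 and 65.0 to 198 and 196 CPM (log2 1.46 ± 0.123), and BAD, which opposes it, 2.01-fold.

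The lists of cell cycle genes had small median differences. Of 52 G2/M and mitosis genes 10 rose and 2 fell, median 0.11, which turned to -0.22 on the deposited scale with 2 higher and 16 lower. Single members of that list ran from log2 -0.48 in CKS2 to 1.61 in CDC25C (adjusted p = 0.0447 and 0.000481). NCAPD2, a condensin subunit, rose from 309 and 303 to 459 and 435 CPM (log2 0.54 ± 0.0787, adjusted p = 1.05e-07). BIRC5, survivin, stood at 447 and 448 CPM in MYC and at 454 and 462 in Zab+MYC and was not called (log2 0.03), though on the deposited scale it was lower (log2 -0.30, adjusted p = 0.00249). The count of 10 became 2, 6, 5 and 4 without MYC replicate 1, MYC replicate 2, Zab+MYC replicate 1 and Zab+MYC replicate 2. Of 56 G1/S and replication genes 6 fell and 3 rose, median -0.08. CCND1, cyclin D1, fell from 545 and 558 to 366 and 352 CPM (log2 -0.62 ± 0.0887, adjusted p = 8.52e-08), and MCM3, of the replicative helicase, fell 1.34-fold. The 6 lower became 11 and 10 without Zab replicate 1 and Zab replicate 2.

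Histone genes were divided. In the list 8 of 19 rose and 3 fell, median 0.43, or 0.11 on the deposited scale. H1-2, a linker histone, stood at 231 and 257 CPM in MYC and at 474 and 430 in Zab+MYC (log2 0.89 ± 0.0681, adjusted p = 8.66e-18), with 1472 and 1452 in WT. H2AC6, a core histone H2A, rose from 6.07 and 7.14 to 21.9 and 17.7 CPM (log2 1.34). H2AZ1, which encodes an H2A.Z variant, fell 1.22-fold and H3-3B, which encodes H3.3, fell 1.19-fold, whereas H2AZ2, the other H2A.Z gene, rose (log2 0.69). The 8 became 5 without MYC replicate 2 and 4 without Zab+MYC replicate 1.

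Lysosomal and lipid genes were higher in part. Of 38 lysosomal genes 14 rose and 0 fell, with a median log2 of 0.33, or 0.03 on the deposited scale. NPC2, which carries cholesterol out of the lysosome, rose from 216 and 221 to 375 and 347 CPM (log2 0.72 ± 0.0726, adjusted p = 1.18e-12), and CTSD, cathepsin D, from 143 and 113 to 195 and 201 CPM (log2 0.63). Of 31 cholesterol and fatty acid synthesis genes 9 rose and 1 fell, median 0.29, which turned to -0.03 on the deposited scale. FADS2, a fatty acid desaturase, rose from 29.0 and 36.9 to 121 and 135 CPM (log2 1.90 ± 0.145, adjusted p = 6.13e-18). FDFT1, squalene synthase, rose from 64.4 and 90.8 to 168 and 174 CPM (log2 1.14), and SREBF2, the transcription factor of the sterol pathway, rose 2.08-fold. The 9 became 5 without either MYC library and 4 without Zab+MYC replicate 1, and DESeq2 called 5 lysosomal genes.

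Glycolysis was divided, with 7 of 26 members higher and 7 lower and a median of -0.02. On the deposited scale it was not, with 1 higher and 13 lower and a median of -0.34. Members ran from log2 -1.32 in PFKFB3 to 1.06 in SLC2A3. GAPDH, an enzyme of the pathway's payoff phase, rose from 6196 and 6181 to 7619 and 7697 CPM (log2 0.31 ± 0.0242, adjusted p = 2.36e-17), but not on the deposited scale (log2 -0.02, adjusted p = 0.453). LDHB, a lactate dehydrogenase chain, fell from 2106 and 2039 to 1589 and 1547 CPM (log2 -0.40 ± 0.046), and PFKP, a phosphofructokinase, fell 1.46-fold. The 7 higher became 4 without MYC replicate 1 or Zab+MYC replicate 1, and the 7 lower became 11 without Zab replicate 1. Of 18 hypoxia response genes 4 fell and 1 rose. CA12, a membrane carbonic anhydrase, fell from 136 and 123 to 56.0 and 59.5 CPM (log2 -1.14 ± 0.185, adjusted p = 1.63e-06). In the integrated stress and unfolded protein response 6 of 31 fell and 2 rose, with SLC7A5, a large amino acid transporter, 1.39-fold lower. The proteasome had 4 higher and 6 lower of 37, splicing and decay factors 0 and 6 of 35, pausing and elongation factors 2 and 5 of 36, topoisomerases and partners 0 and 1 of 12, MYC and its partners 2 and 4 of 13, ERK feedback genes 3 and 1 of 12, the IGF axis 2 and 0 of 9, and circadian repressors 2 and 1 of 15. Without Zab replicate 1 the lower splicing and decay factors numbered 11, without either MYC library they numbered 3, and without MYC replicate 2 the lower proteasome genes numbered 2. The lower pausing and elongation factors numbered 3 without MYC replicate 2 or Zab+MYC replicate 1, and 1 with DESeq2. Within MYC's partners MXD4, which competes with MYC for MAX, rose from 42.0 and 51.2 to 82.7 and 69.5 CPM (log2 0.69 ± 0.147, adjusted p = 0.000295).

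The largest single rises were in genes of varied roles. TNNT2, cardiac troponin T, stood at 0.934 and 2.38 CPM in MYC and at 37.5 and 40.4 in Zab+MYC, an 11.4-fold rise (log2 3.51 ± 0.396, adjusted p = 4.94e-11) that took it above the 11.4 and 10.1 of WT. TNNC1, the troponin C of slow and cardiac muscle, rose from 4.67 and 8.72 to 40.4 and 39.7 CPM (log2 2.31). EDN1, endothelin-1, a vasoconstrictor peptide, rose from 2.80 and 3.17 to 24.3 and 26.2 CPM (log2 2.45 ± 0.391, adjusted p = 1.08e-06). EDN2, another endothelin, had 0 tags in MYC and 24.5 in Zab+MYC and was at least 11-fold higher. TNFRSF14, a receptor of the TNF family, likewise at 0 in MYC, was at least 7.85-fold higher. UTRN, utrophin, which links actin to the membrane, rose from 6.54 and 13.9 to 64.2 and 48.2 CPM (log2 2.31 ± 0.246). CLIP3, a microtubule-associated protein, rose 4.91-fold, MFAP5, a microfibril protein, 4.93-fold, and ST6GALNAC5, a sialyltransferase, 4.89-fold. Fitted folds of genes this low depend on the pseudocount of 2 CPM.

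The largest falls were smaller. The 15 lowest log2 differences, among called genes whose groups did not overlap and with at least 10 CPM in MYC, ran from -1.48 in ZDHHC6 to -1.14 in CA12. Of these 15 calls 2 held in every alternative that gave the gene an adjusted p, those of ESF1 and CA12, against 14 of the 15 highest. ESF1, a nucleolar protein of ribosomal RNA processing, fell from 87.8 and 94.0 to 41.8 and 35.4 CPM (log2 -1.20 ± 0.221, adjusted p = 2.29e-05). ZDHHC6 lost its call without MYC replicate 2 (adjusted p = 0.0674).

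The difference with Zab was not the same with and without overexpressed MYC. A test of the difference between the 2 differences, which share no library, called 1408 genes higher (14.6%) and 1287 lower (13.3%). Across the 9673 genes the 2 log2 differences had a Pearson r of -0.138 and a Spearman rho of -0.169, given as a description, since genes are not independent. Of the 1146 genes higher in Zab+MYC than in MYC, 130 were also higher and 244 lower in Zab against WT. Of the 787 lower, 74 were also lower and 317 higher. For MYC itself Zab stood 2.51-fold above WT and Zab+MYC 1.79-fold below MYC, and the difference between these was log2 -2.16 (adjusted p = 8.34e-24). The ADAR level was far higher in Zab than in Zab+MYC, so the amount of Zab may differ between the comparisons as well as MYC. The part of that amount was not tested.

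Some lists went opposite ways in the comparisons and others did not. Targets of p53 had 9 higher and 3 lower in Zab against WT (median 0.33), the direction they had with overexpressed MYC, and FACT and other histone chaperones had 9 lower in each comparison, with 4 higher in Zab against WT. Similar counts need not be the same genes. The difference between the comparisons was called higher in 8 and lower in 2 of 32 p53 targets. For the chaperones it was called higher in 4 and lower in 7 of 30. It was log2 -1.50 for NCL and -0.80 for NPM1, past their falls with overexpressed MYC (-0.67 and -0.60). For ANP32A (-0.46) it was 0.45, the other way. Of the 90 ribosome biogenesis genes 54 rose and 0 fell in Zab against WT (median 0.53), and 68 differed in the lower direction between the comparisons and 0 in the higher one. For NOLC1, for example, Zab stood 1.77-fold above WT and Zab+MYC 1.81-fold below MYC (difference log2 -1.68, adjusted p = 7.91e-16). In the matrix list 1 rose and 21 fell in Zab against WT (median -0.52), and 28 of 44 differed in the higher direction and 0 in the lower one. For FN1 Zab stood 2.25-fold below WT and Zab+MYC 2.29-fold above MYC (difference 2.37, adjusted p = 1.06e-17). Of 52 G2/M genes 0 rose and 32 fell in Zab against WT, and 32 differed in the higher direction. For the interferon-stimulated effectors 17 of 35 differed in the lower direction and 2 in the higher one. On the deposited scale the difference of differences was called higher in 2061 genes and lower in 829. MYC against WT, which shares the MYC libraries with the comparison described here, had medians of 1.57 for ribosome biogenesis, 1.64 for MYC core targets and -1.88 for matrix genes.

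**Figure D5:**
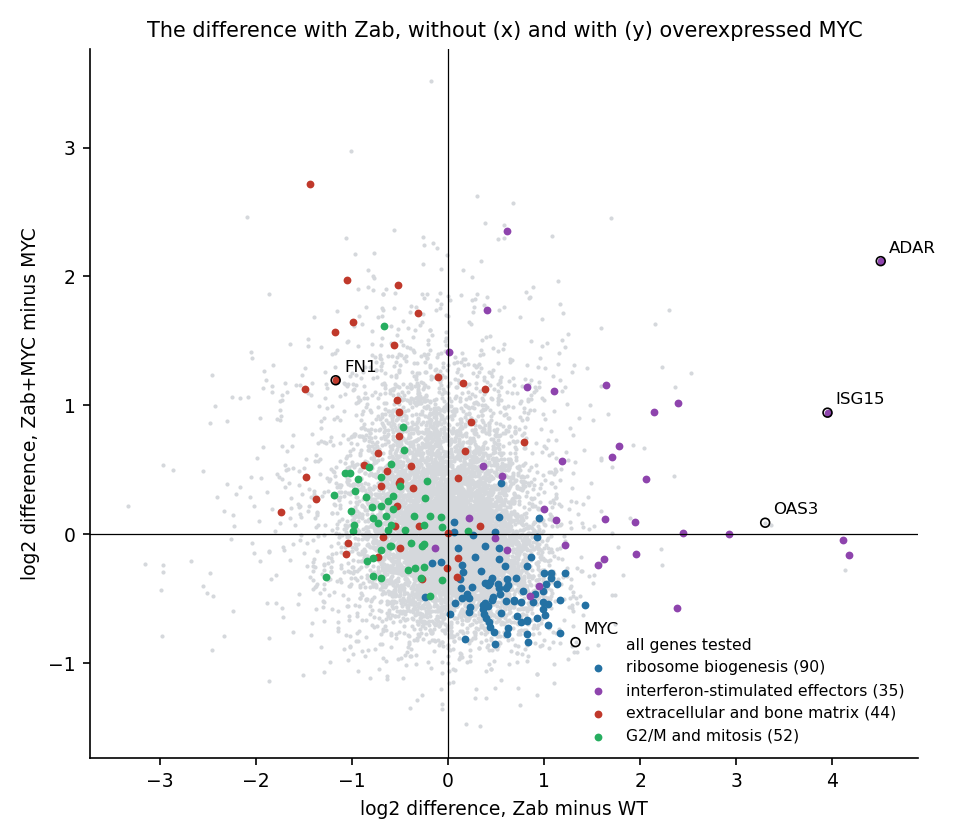
Log2 difference of Zab and WT (x axis) against that of Zab+MYC and MYC (y axis) for 9673 genes (grey), with 4 lists coloured and 5 genes ringed. Ribosome biogenesis genes lie right of and below 0, most matrix genes left of and above 0, and interferon-stimulated effectors spread along the x axis.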

How the data were processed

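The 8 U2OS libraries were made from RNA extracted with Trizol and sequenced, per the labels' protocols. The authors deposited 1 table per library holding an exon signal for each of 19414 genes. The submitters' processing notes name HOMER 4.11.1, Trim Galore 0.6.6 and STAR (version not given in the sources used here), and the builds hg19 and dm6 without a role. Per the file headers, HOMER counted exon tags of coding genes (RefSeq, hg19) with 1 transcript for each symbol. The same transcript was kept in the 4 libraries compared for 10570 genes. Coordinates of genes are hg19.

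Every deposited signal value was a whole multiple of 1 step per library (100% of values, tolerance 0.1 step). A tag was taken as 2 steps, an assumption under which exon tags stay below each header's total. The sources used here do not give how the scale was set.

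Genes were kept with filterByExpr, which a gene could pass through any group, and scaled to CPM with TMM. A limma 3.58.1 fit with a mean-variance trend was made on log2(CPM + 2) of the 8 libraries, with a mean for every group, which leaves 4 residual degrees of freedom. The 67.2 prior degrees of freedom mean that very small p-values rest on the spread pooled over genes. Genes were called at an adjusted p under 0.05 (Benjamini-Hochberg, two-sided), and fold changes, on the log2(CPM + 2) scale, understate the change of low genes. A floor is 3 counts over a group. Counting intervals are exact (Clopper-Pearson). They cover counting error alone, since the reads carry no molecular identifiers and are not independent molecules.

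The genes and lists described were chosen with earlier results of these data known. Named are MYC, ADAR and the FACT subunits, the 15 largest called changes each way with groups apart and at least 10 CPM, up to 4 called members a list and direction at that level, the 6 largest differences of differences each way, and further members by role. Alternatives were RLE factors, library totals, the deposited scale, other filters, pseudocounts of 1 and 5 CPM, edgeR 4.0.16 and DESeq2 1.42.0 on rounded tags, the 4 libraries alone, a replicate block, 1 transcript throughout, and each library left out. The fits were tested on simulated data. Software was matplotlib 3.10.9, scipy 1.17.1, pandas 2.3.3 and numpy 2.4.6 under Python 3.11.15, and R 4.3.3. The sources used here do not give whether counting used strand. Overlapping and antisense genes are therefore uncertain, as are near-identical families (ribosomal proteins, histones, HLA, IFITM).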

Additional observations from a re-analysis of the deposited data

Results flagged for a closer look

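The difference with Zab differed between cells with and without overexpressed MYC. The test of the difference between Zab+MYC against MYC and Zab against WT called 1408 genes higher and 1287 lower (limma). MYC (log2 -2.16), which was higher in Zab than in WT and lower in Zab+MYC than in MYC, and ADAR (-2.39), higher with Zab in both, were among them. ADAR was far higher in Zab than in Zab+MYC, so that the amount of Zab may differ between the comparisons too. These libraries cannot separate that amount from overexpressed MYC, and its part was not tested. MYC was counted on another transcript in Zab replicate 1 than elsewhere.

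The 6 lowest values of that difference with at least 10 CPM in the highest group were in interferon-stimulated genes. They were OAS2 (-4.41), IFI44L (-4.33), IFI6 (-4.15), OAS1 (-3.29), OAS3 (-3.21) and ISG15 (-3.01). All 6 were high in both Zab libraries. IFI44L had 3 tags in WT and 96.5 in Zab, a ratio of 36.9 (95% counting interval 12.3 to 182), and stood at 2.92 and 2.84 CPM in Zab+MYC.

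The 6 highest values were in PDGFRB (4.56), LOXL4 (4.15), EDN2 (3.99), OLFML3 (3.73), CCNG2 (3.70) and TNNT2 (3.69). PDGFRB, a receptor of platelet-derived growth factor, had 0 tags in MYC and was at least 6.95-fold higher in Zab+MYC, while it was 4.28-fold lower in Zab than in WT. OLFML3, a secreted protein, rose from 1 tag in MYC to 11.5 in Zab+MYC (ratio 15.5, interval 2.27 to 664). CCNG2, cyclin G2, stood at 1.87 and 0.793 CPM in MYC and at 5.84 and 5.67 in Zab+MYC, and its call in that comparison alone ended without any 1 of the 4 libraries compared or either WT library (adjusted p 0.0626 to 0.253), and with no filter on low values, a pseudocount of 5 CPM and edgeR (0.0526 to 0.0891). These fitted values of low genes depend on the pseudocount.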

How the results depend on the processing

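Over 20 alternatives for Zab+MYC against MYC, 1 scale turned calls, the deposited one, with 9 genes. Counts that moved by over 1.5 times were as follows. On the deposited scale Zab+MYC against MYC had 2947 lower and 575 higher, and the difference of differences 829 lower. DESeq2 gave 335 higher and 367 lower, and for the difference of differences 501 and 617. Among genes kept on 1 transcript in all 8 libraries, which are fewer (4604 tested), there were 563 higher and 481 lower, and for the difference of differences 751 and 745. Leaving out 1 library at a time gave 628 to 1211 higher and 460 to 1073 lower, and for the difference of differences 1047 to 1229 and 1076 to 1292. With a replicate block the counts were 1182 higher and 828 lower. The block moved no count by over 1.5 times. Same-numbered libraries of MYC and Zab+MYC did not deviate together (correlation 0.0073), and the labels give no shared origin. Among named genes called on either scale, BIRC5 (log2 -0.296) and GAPDH (-0.0235) turned sign on the deposited scale. Genes not called, such as BAX, EIF2AK2 and TAGLN, also went below 0 in an alternative (lowest log2 -0.23, -0.21 and -0.13). Depth limits genes of a few tags, and DESeq2 gave 5922 genes an adjusted p.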

Other observations

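Genes with few or no tags elsewhere were more often detected in Zab+MYC. Tags were found in 973 genes that had none in the other 3 groups, against 246 for MYC, 287 for WT and 304 for Zab. Of the 973, 151 had tags in both Zab+MYC libraries. The same held for 13 of the 246 for MYC, 37 of the 287 for WT and 29 of the 304 for Zab, each in its own libraries. MRGPRE, a receptor gene, had the most tags of the 973 genes, 6. The CPM summed over 7274 genes with a mean under 2 CPM was 3228 and 3266 in Zab+MYC, 1718 and 1705 in MYC, 2851 and 2981 in WT and 2509 and 2663 in Zab. Exon share was 76.0% in MYC, 69.1% in Zab+MYC, 70.9% in WT and 60.8% in Zab. The part of exon share in these sums and in the detection was not tested.

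The direction of the log2 difference of Zab+MYC and MYC also moved with level. From the lowest to the highest sextile of mean CPM the median was 0.15, 0.07, 0.02, -0.01, -0.05 and -0.10. Called genes that were higher had a median of 52.2 CPM and those lower 138 CPM. Of called genes under 10 CPM in both groups 67 were higher and 1 lower. Genes this low in MYC and Zab+MYC could pass the filter through their level in WT or Zab. The part of that selection in these counts and in the lowest sextile was not tested.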
